A study of Mus musculus with 44 samples.

Results

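IRF3 binding after LPS was compared between Dnmt3a KO and WT macrophages at the level of deposited ChIP-seq peaks. Peak intervals of the KO list and of the WT list were compared base by base, and a peak was called shared where it overlapped a peak of the other list by at least 1 bp. The KO list held 1792 peaks, of which 978 were absent from the WT list (KO-only) and 814 were shared. The WT list held 1424 peaks, of which 600 were absent from the KO list (WT-only) and 824 were shared. The 3216 peaks came from 15489 peaks in the 8 lists of the series.

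The macrophages were grown from whole bone marrow of C57BL/6 mice in 30 ng/ml M-CSF with 10% serum and collected at day 8 to 10. The KO group was 3 IRF3 ChIP samples from Dnmt3a KO macrophages given 10 ng/ml LPS for 6 hours, and the WT group was 2 IRF3 ChIP samples from WT macrophages given the same LPS. They are 5 of the 44 samples of the series. The labels name neither the allele or Cre line behind the KO nor the age or sex of the mice. The other 6 lists are IRF3 without LPS (2 KO and 3 WT samples) and NF-kB with and without LPS (3 samples per group). All samples of a group point to the same list, so no peak has a value per replicate, no test between genotypes was possible, and the larger number of KO samples cannot be told apart from genotype where the lists differ in length.

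IRF3 is a latent transcription factor. Bacterial LPS engages TLR4, which through the adaptor TRIF and the kinase TBK1 leads to IRF3 phosphorylation, dimerisation and entry into the nucleus, where IRF3 activates type I interferon and other genes with interferon response elements. NF-kB is activated by the same receptor. Dnmt3a places methyl groups on previously unmethylated DNA. In ChIP-seq, DNA crosslinked near a factor is precipitated and sequenced, and a peak is an interval in which such DNA was called enriched. A peak list holds no expression, so neither the macrophage identity of the cells nor the loss of Dnmt3a could be checked from it.

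The sequences that could be read under peaks were the RefSeq promoter windows of the GRCm38.p6 assembly, each of 300 bases around an annotated start. Of 32851 windows, 14 overlapped a KO or WT peak and are called windows under peaks. They are shown because 5 of those 14 windows held a long internal repeat, and because a set of near-copies on chromosome 5 lay where WT-only peaks crowded together. Capitals mark matches to the NF-kB motif searched, which is GGG, any 5 bases and then CC, read on either strand. The first window lay under a KO-only peak, the second under a shared peak, the third under a WT-only peak, the fourth under no peak and the fifth under a narrow KO-only peak.
Gm40237, chr4:118547156-118547455, plus strand: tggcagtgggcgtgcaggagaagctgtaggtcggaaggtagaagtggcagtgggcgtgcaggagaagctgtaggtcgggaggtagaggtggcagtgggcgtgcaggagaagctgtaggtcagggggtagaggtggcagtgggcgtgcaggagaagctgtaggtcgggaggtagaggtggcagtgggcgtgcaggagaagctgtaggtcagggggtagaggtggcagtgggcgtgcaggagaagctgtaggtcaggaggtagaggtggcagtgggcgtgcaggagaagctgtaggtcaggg
Gm36816, chr6:67008938-67009237, minus strand: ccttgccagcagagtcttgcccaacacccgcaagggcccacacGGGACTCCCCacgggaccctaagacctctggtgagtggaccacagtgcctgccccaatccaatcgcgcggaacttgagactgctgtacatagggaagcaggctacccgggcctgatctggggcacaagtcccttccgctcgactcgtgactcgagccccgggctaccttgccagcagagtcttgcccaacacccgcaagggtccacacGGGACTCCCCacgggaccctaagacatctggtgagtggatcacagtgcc
Gm21083, chr5:15577043-15577342, plus strand: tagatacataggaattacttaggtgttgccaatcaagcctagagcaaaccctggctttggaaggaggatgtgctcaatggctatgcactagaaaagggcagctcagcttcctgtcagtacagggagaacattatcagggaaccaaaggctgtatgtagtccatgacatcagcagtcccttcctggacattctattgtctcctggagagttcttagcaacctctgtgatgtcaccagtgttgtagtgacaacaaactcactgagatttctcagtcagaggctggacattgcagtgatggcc
Speer4d, chr5:15618849-15619148, plus strand: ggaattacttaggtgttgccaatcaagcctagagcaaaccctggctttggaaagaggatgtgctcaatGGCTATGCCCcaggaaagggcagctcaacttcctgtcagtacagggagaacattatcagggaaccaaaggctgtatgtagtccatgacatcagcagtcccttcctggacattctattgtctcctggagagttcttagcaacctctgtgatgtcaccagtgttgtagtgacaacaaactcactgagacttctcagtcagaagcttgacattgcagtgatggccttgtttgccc
Gm21190, chr5:15529173-15529472, minus strand: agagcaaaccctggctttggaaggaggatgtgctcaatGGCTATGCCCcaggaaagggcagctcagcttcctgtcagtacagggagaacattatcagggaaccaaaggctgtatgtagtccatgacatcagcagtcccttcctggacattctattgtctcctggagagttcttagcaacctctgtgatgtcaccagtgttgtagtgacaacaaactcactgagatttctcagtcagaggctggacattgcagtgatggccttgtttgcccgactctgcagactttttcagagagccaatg

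The Gm40237 window, at the start of a long non-coding RNA, matched itself at 97.6% of the overlapping bases when shifted by 88 bases. The Gm36816 window, also of a long non-coding RNA, matched itself at 96.7% of the overlapping bases at a shift of 208 bases, and its NF-kB motif matches lay in both copies of the repeat. Over all windows the best self-match at shifts of 10 to 225 bases had a median of 36.8%, and 34 windows (0.103%) reached 80%, against 5 of the 14 windows under peaks. This measure was added after the sequences had been seen and was given no test. The Gm21083 and Speer4d windows aligned with 91.0% identity, although a WT-only peak covered the first and no peak of either list covered the second. Reads from such copies may be assigned to any of them, and the authors' treatment of them is not stated in the labels.

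The IRF motif searched, which is GAAA, any 2 bases and GAAA again, occurred in 3.44% of all windows and in 0 of the 14 under peaks. The NF-kB motif occurred in 50.8% of all windows and in 7 of the 14. The AP-1 motif searched, TGANTCA, occurred in 7.81% of all windows and in 1 of the 14. Matches were sought on both strands and could overlap. These counts describe the letters of 14 windows and not where a factor bound.

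KO-only peaks made up 54.6% of the KO list (95% Clopper-Pearson interval 52.2 to 56.9) and WT-only peaks 42.1% of the WT list (39.6 to 44.7). These intervals, like those below, cover counting error only. Shared peaks numbered 814 in the KO list of 1792 and 824 in the WT list of 1424. The gap between the KO-only and WT-only shares therefore follows largely from list length. KO-only peaks were narrower and lower in the ranking by deposited p-value than shared ones: their median width was 941 bp and median rank 1190.5, against 1643.5 bp and 515 for shared KO peaks. WT-only peaks had a median width of 811 bp and a median rank of 962.5, against 1570 bp and 503.5 for shared WT peaks. Ranks run from 1, for the smallest deposited p-value of a list, and have no meaning between lists. Under a deposited q-value of 0.05 stood 7 KO-only and 136 shared KO peaks, and 9 WT-only and 133 shared WT peaks.

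**Figure D1:**
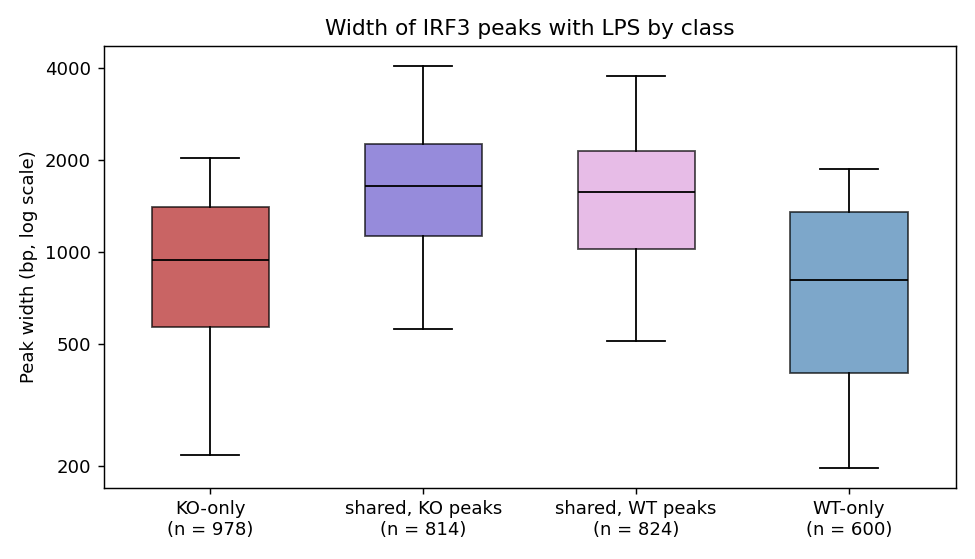
Width in bp (log axis) of KO-only peaks, shared peaks as called in KO, shared peaks as called in WT and WT-only peaks, with the median as line, quartiles as box and whiskers at percentiles 5 and 95. Medians are 941 bp for KO-only, 1643.5 bp for shared KO, 1570 bp for shared WT and 811 bp for WT-only peaks.

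Shared peaks were concentrated at the best ranks of each list. In the KO list, 97 of the 100 best-ranked peaks were shared, 54 of ranks 501 to 600, and 13.0% of ranks 1701 to 1792 (6.93 to 21.7). In the WT list, 58 of ranks 501 to 600 and 25 of ranks 1301 to 1400 were shared. Width gave the same gradient: 10.1% of KO peaks and 8.0% of WT peaks under 250 bp were shared, against 84.6% of KO peaks and 90% of WT peaks between 2000 and 4000 bp. Of the 97 shared peaks among the KO top 100, 55 had a partner in the WT top 100. Across 814 shared pairs, KO and WT ranks correlated with Spearman's rho of 0.541 and widths with 0.754. The points are peaks of the same merged lists, so both are descriptions. The KO peak was the wider in 485 pairs and the WT peak in 325, with a median width ratio of 1.05 for KO over WT.

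**Figure D2:**
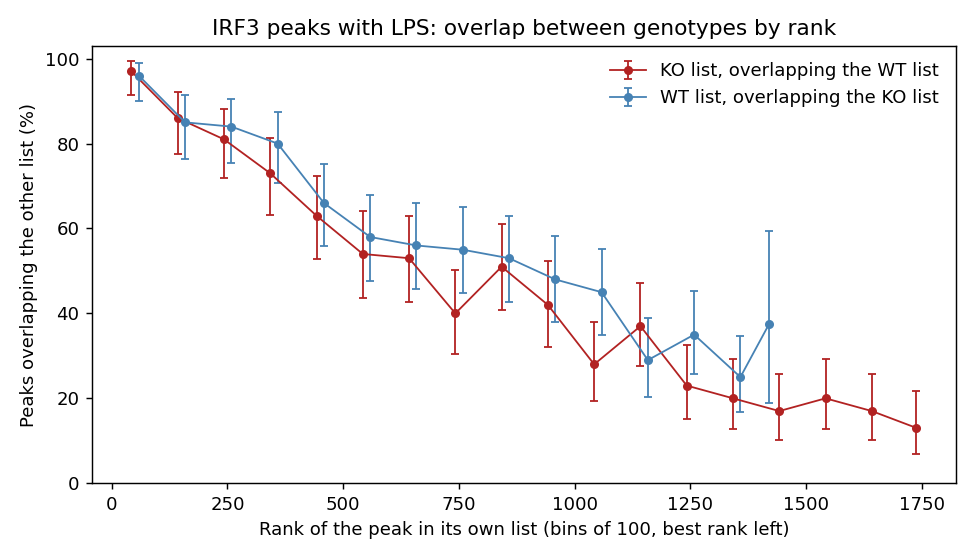
Percentage of peaks shared with the other list for consecutive bins of 100 ranks, for the KO list and the WT list, with 95% Clopper-Pearson intervals. The KO share is 97% in the first bin and 13.0% in the last, and the last WT bin holds only 24 peaks.

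Most unshared peaks were far from any peak of the other genotype's IRF3 list with LPS. Peaks of that genotype's remaining lists were not counted here, although they overlapped 53.6% of KO-only and 52.7% of WT-only peaks. The nearest peak of the WT IRF3 list with LPS was over 100 kb away for 774 KO-only peaks (79.1%). The nearest peak of the KO IRF3 list with LPS was over 100 kb away for 393 WT-only peaks (65.5%). No baseline for other positions was computed, so these shares do not show that unshared peaks were unusually isolated. The WT and KO lists measured against also differ in length. Most WT-only peaks of the chromosome 5 runs described below lay within 100 kb of a KO peak and count toward the lower share. Within 1 kb of a peak of the other list lay 14 KO-only and 11 WT-only peaks. All shared peaks overlapped by at least 139 bp, and the median overlap was 1378.5 bp in KO peaks and 1367 bp in WT peaks.

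The best-ranked KO-only peak was 9505 bp wide, on chromosome 18 with no coding gene within 100 kb, at rank 68, and overlapped peaks in all 6 other lists. The best-ranked KO-only peak with a coding gene within 100 kb was at chr8:128776803-128780596, 3794 bp wide and 43.2 kb beyond Itgb1, which encodes the integrin beta-1 chain. Its KO rank was 86 and its deposited q-value 0.0231. It overlapped a peak in each of the other KO lists, at ranks 452 (IRF3 untreated), 243 (NF-kB with LPS) and 1328 (NF-kB untreated), and no peak in any WT list. The overlap with the untreated KO IRF3 peak was 118 bp, and a WT peak of NF-kB with LPS lay 216 bp away.

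Next in the KO-only ranking, Mup20, a major urinary protein gene, was 13.7 kb from a peak at rank 95 that overlapped peaks in all 6 other lists. A peak at rank 113 (q-value 0.0334) was 2305 bp from Tmem125 and overlapped the repeat-rich Gm40237 window printed above. It overlapped both WT NF-kB lists and not the untreated WT IRF3 list. A peak at rank 125 lay inside Afm, which encodes the vitamin E-binding protein afamin, and 1 at rank 131 lay 15035 bp from Nbea, the neurobeachin gene. Vps45, a vesicle trafficking gene, held a 392 bp KO-only peak at rank 146, and Trip11, which encodes a golgin, held 1 at rank 169. The Trip11 peak overlapped peaks in all 6 other lists. The Afm, Nbea and Vps45 peaks overlapped every other list except the untreated WT IRF3 list. Scgb1b3 (rank 152), Gm21977 (rank 135) and Arl15 (rank 191) completed the 10 best-ranked, and each overlapped a peak of another WT list. All 7 KO-only peaks with a q-value under 0.05 overlapped the untreated KO IRF3 list, and 3 overlapped the untreated WT IRF3 list.

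The best-ranked WT-only peak lay 1099 bp from Cdkn1a, which encodes the cell-cycle inhibitor p21, at chr17:29101822-29103976 with rank 18 and a q-value of 0.00463. The KO list held a single 5054 bp peak here, at chr17:29103994-29109047 and rank 19, which began 17 bp from the end of the WT-only peak. That KO peak overlapped a second WT peak at chr17:29105796-29108853, rank 5. Each of the other 6 lists held a peak on each side of this boundary, so the proximal interval was missing only from the KO list with LPS among the 8. The proximal peak was ranked 27 in the untreated KO IRF3 list and 97 in the untreated WT IRF3 list. In the NF-kB lists it was ranked 1925 in KO (q-value 0.889) and 202 in WT with LPS, and 117 in KO and 38 in WT without LPS.

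Among WT-only peaks with no coding gene within 100 kb, 1 of 213 bp on chromosome 13 stood at rank 41 and 1 of 831 bp on chromosome 16 at rank 89. Other WT-only peaks under a q-value of 0.05 included 1 of 207 bp at rank 121, 22.0 kb from Ly6c2, which encodes a surface protein of inflammatory monocytes, and 1 inside Zfp872, a zinc finger gene, at rank 124. The Ly6c2 peak overlapped both untreated IRF3 lists, at ranks 616 in KO and 431 in WT, and no NF-kB list. The Zfp872 peak overlapped the untreated WT IRF3 list and both untreated NF-kB lists. Magea4, an X-linked gene of the MAGE family, was 28.4 kb from a peak at rank 115 that was present in all 6 other lists. Peaks near Gm21190 (rank 61), Gm17019 (rank 122) and Speer4c (rank 137) belonged to the chromosome 5 cluster described below. Magea2, another MAGE gene, was 2534 bp from a peak at rank 171 that was likewise present in all 6 other lists. Of the 9 WT-only peaks under 0.05, 8 overlapped the untreated WT IRF3 list and 3 the untreated KO IRF3 list.

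The shared peaks with the best KO ranks included 1 of 351 bp at chr16:33849192-33849542, inside Itgb5, the integrin beta-5 gene. It was ranked 2 in both lists, with a q-value of 5.60e-06 in KO and 2.57e-05 in WT. It was in both untreated IRF3 lists and in no NF-kB list. The shared peaks near 9230019H11Rik (KO rank 3, WT rank 4), Gm15319 (KO rank 4, WT rank 16) and Mageb5 (KO rank 6, WT rank 64) were in all 6 other lists. The 7430 bp shared peak inside Tmem267 was ranked 9 in KO and 558 in WT.

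Shared peaks were found under other conditions more often than unshared ones. KO-only peaks overlapped the untreated KO IRF3 list in 33.4% of cases (30.5 to 36.5) and the untreated WT IRF3 list in 15.3% (13.1 to 17.8). WT-only peaks overlapped the untreated KO IRF3 list in 26.8% (23.3 to 30.6) and the untreated WT IRF3 list in 25.3% (21.9 to 29.0). Shared KO peaks overlapped them in 83.4% and 61.1%. Both lists were also cut to peaks of at least 500 bp before classing. The untreated KO IRF3 list then held 39.1% of KO-only, 36.6% of WT-only and 85.5% of shared KO peaks. The untreated KO list was the longer, at 1707 peaks against 1169 in WT, and merged fewer samples.

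The NF-kB lists, from another antibody, held many peaks of every class. KO-only peaks overlapped the KO NF-kB list with LPS in 42.3% of cases and the WT NF-kB list with LPS in 45.1%, WT-only peaks in 29.5% and 38.7%, and shared KO peaks in 84.4% and 87.7%. Without LPS, KO-only peaks overlapped the KO NF-kB list in 52.4% and the WT NF-kB list in 24.2%. The untreated KO NF-kB list also held more of the other classes than the WT one. It held 37.5% against 25.3% of WT-only peaks and 88.6% against 69.8% of shared KO peaks. These untreated KO and WT NF-kB lists held 3065 and 1462 peaks. At least 1 of the 6 other lists held 73.4% of KO-only, 68.2% of WT-only and 98.5% of shared KO peaks. All 6 other lists held 44.6% of shared KO, 4.40% of KO-only and 5.5% of WT-only peaks. Regions found in all 8 lists, formed by joining overlapping peaks, contained 45.1% of shared KO peaks. By the class rule an unshared peak could enter such a region only through a chain of overlapping peaks. This was so for 4 KO-only peaks and 1 WT-only peak.

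**Figure D3:**
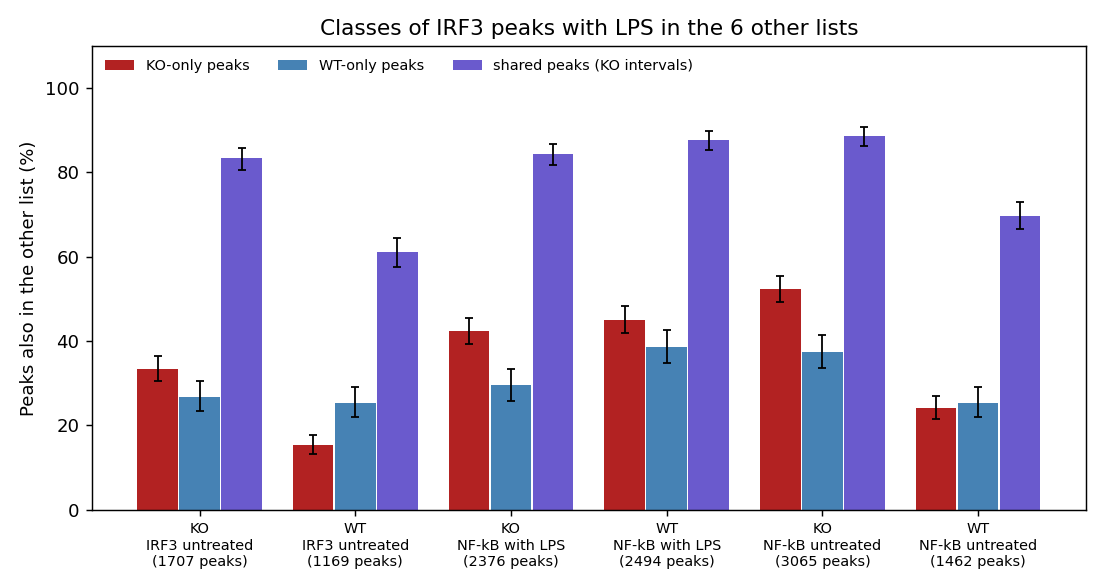
Percentage of KO-only, WT-only and shared (KO) peaks that overlap each of the other 6 lists, with 95% Clopper-Pearson intervals. In the untreated KO IRF3 list the shares are 33.4% of KO-only, 26.8% of WT-only and 83.4% of shared peaks.

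Few unshared peaks were present in every list of their genotype and absent from every list of the other. Of KO-only peaks, 524 (53.6%) overlapped at least 1 other WT list, and of WT-only peaks, 316 (52.7%) overlapped at least 1 other KO list. KO-only peaks in all 3 other KO lists and no WT list numbered 20 (2.04%, 1.25 to 3.14), and WT-only peaks in all 3 other WT lists and no KO list 5 (0.833%, 0.271 to 1.93). This grouping was chosen after the lists had been examined. Beside Itgb1, the 20 included a peak inside Gm6351 (rank 237), 1 inside Cdca8, a gene of the chromosomal passenger complex (rank 941), 1 inside the receptor phosphatase gene Ptprk (rank 1452), and abutting pairs inside Caps2 and 34.4 kb from Vps13d. The 5 WT-only peaks were near or inside Cdh8 (rank 298), Zfp990 (rank 394), Vmn1r53 (rank 622), Pdgfc (rank 685) and A26c3 (rank 756). Peaks found in no other list were 260 KO-only, of median width 532.5 bp, and 191 WT-only, of median width 388 bp. The best-ranked with a coding gene within 100 kb were near Zfp980 (rank 280) and inside Dync2h1 (rank 310) in KO, and near Frmd8 (rank 346) and Speer4d (rank 379) in WT.

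Unshared peaks were unevenly placed along the genome. Chromosome 5 held 55 KO-only peaks (5.62%) and 83 WT-only peaks (13.8%). Runs of at least 5 peaks of a class with gaps of at most 100 kb, a rule set after the positions had been seen, numbered 4 for KO-only (21 peaks, 2.15%) and 7 for WT-only (78 peaks, 13%). A pair of WT-only runs on chromosome 5, of 16 and 32 peaks, lay between positions 14903333 and 15712188. This span of 809 kb contains 9 coding genes, among them Speer4e, Speer4d and Speer4c, of a family named for glutamate-rich proteins associated with spermatogenesis.

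Inside these runs the KO IRF3 list with LPS held 3 peaks and the WT IRF3 list with LPS 49. Without LPS, IRF3 had 1 KO peak and 53 WT peaks there. NF-kB had 20 KO and 31 WT peaks with LPS, and 28 KO and 11 WT peaks without LPS. As a share of each list, IRF3 peaks in the runs were 0.167% in KO and 3.44% in WT with LPS, and 0.0586% in KO and 4.53% in WT without LPS. For NF-kB these shares were 0.842% in KO and 1.24% in WT with LPS, and 0.914% in KO and 0.752% in WT without LPS. The WT IRF3 peaks with LPS had a best rank of 61, a median rank of 815 and 3 q-values under 0.05, and the untreated WT IRF3 peaks a best rank of 14, a median rank of 584 and 5 such q-values. The 3 KO IRF3 peaks with LPS had a best rank of 567 and a median rank of 1238. Of the 49 WT peaks with LPS, 20 overlapped a peak of the untreated WT IRF3 list. The promoter windows of 8 of the coding genes aligned with identities of 61.8% to 97.3%, median 80.7%, the highest being Speer4e with Gm17019.

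**Figure D4:**
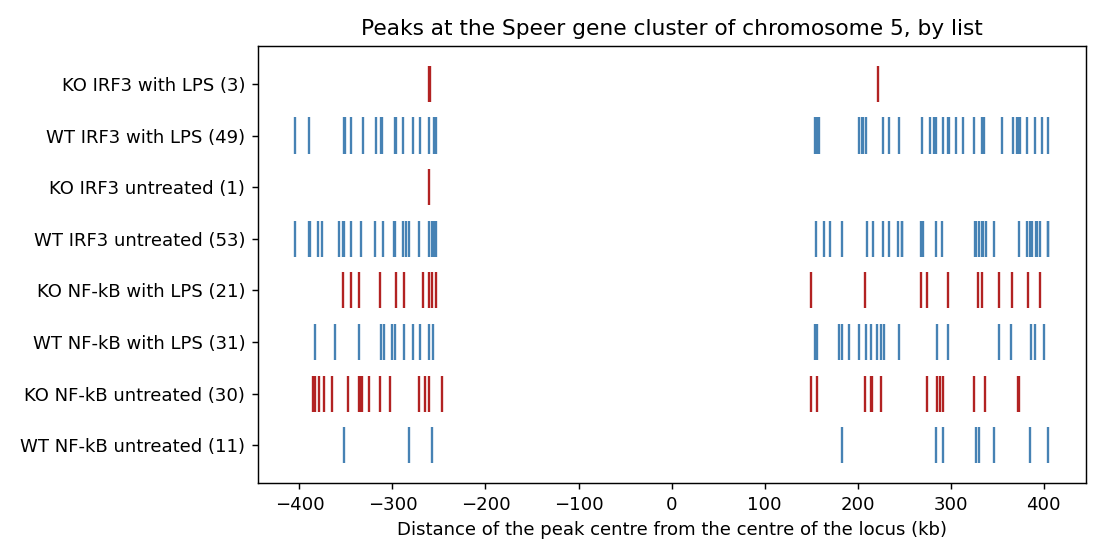
Centres of the peaks of the 8 lists (1 line per list, KO above WT) by distance in kb from the centre of the 809 kb chromosome 5 span, with the number of peaks of each list in the whole span in brackets. IRF3 has 3 KO and 49 WT peaks with LPS and 1 KO and 53 WT peaks without, whereas NF-kB peaks occur in all 4 lists. The span was picked by its WT-only IRF3 peaks with LPS.

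The reverse placement was seen near Tdpoz3 and Tdpoz4, genes named for their TRAF-like and POZ domains, on chromosome 3 between positions 93807574 and 93867719. Here the KO IRF3 list with LPS held 5 peaks, all KO-only, and the WT IRF3 list with LPS held 0. This run was likewise picked by its KO-only peaks, so the difference with LPS follows in part from that choice. The untreated IRF3 lists held 5 KO peaks and 0 WT peaks, and all 4 NF-kB lists held 0. The KO peaks with LPS had ranks of 930 to 1615, and 2 of the 5 overlapped an untreated KO peak. Other KO-only runs lay near Sp110 and Sp140, which encode nuclear body proteins (5 peaks), in Sfi1, a centrosomal gene (5 peaks), and near Zfp978 and Zfp982 (6 peaks). Inside those 3 runs the WT list with LPS held 2, 1 and 7 peaks. The untreated IRF3 lists held 6, 1 and 6 KO peaks and 4, 5 and 5 WT peaks there. In Sfi1 the direction was thus reversed without LPS. A WT-only run of 8 peaks on chromosome 1 lay near A530032D15Rik, where the KO list held 5 peaks. The untreated IRF3 lists held 4 KO and 7 WT peaks in this run. In the WT-only run on chromosome 8, KO and WT IRF3 peaks numbered 5 and 8 with LPS but 6 and 3 without. In the WT-only run at Zfp992 they numbered 2 and 6 with LPS but 2 and 1 without. The WT-only runs on chromosome 16 (2 and 8, then 3 and 7) and at Zfp982 (2 and 5, then 1 and 2) kept their direction.

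**Figure D5:**
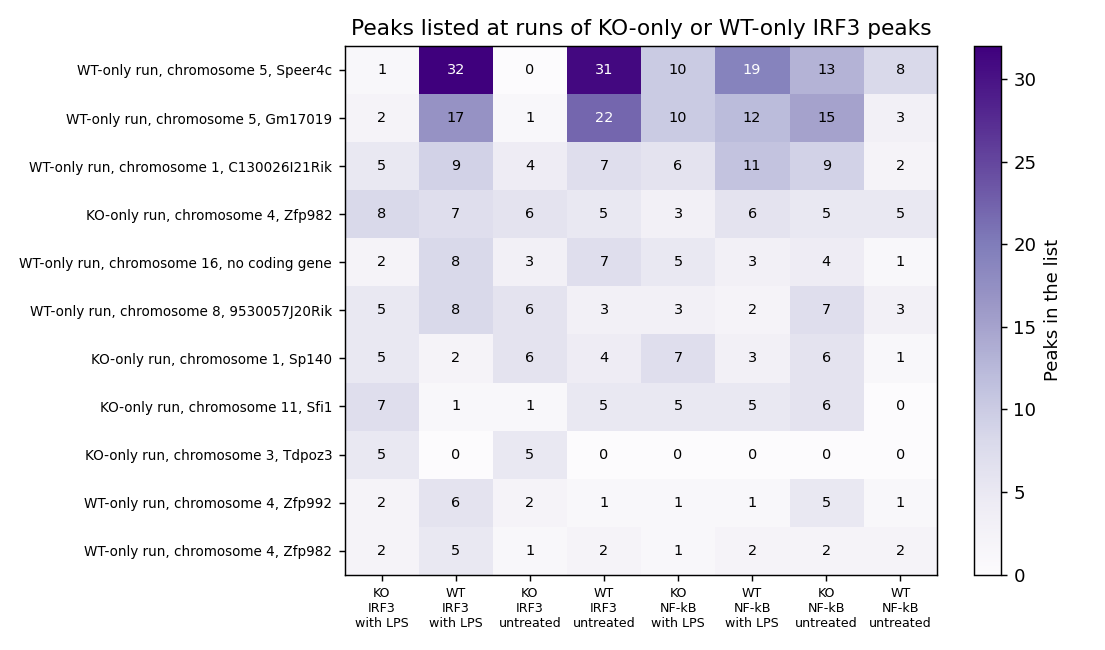
Number of peaks of each of the 8 lists (columns) inside each of the 11 runs of same-class peaks (named by chromosome and a gene in or near the run), with darker cells holding more peaks. The WT-only run of 32 peaks on chromosome 5 holds 1 KO and 32 WT IRF3 peaks with LPS, and the KO-only run at Tdpoz3 holds 5 KO and 0 WT.

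Peaks were mostly distant from genes in all classes. Within the span of a coding gene lay 31.0% of KO-only peaks (28.1 to 34.0), 26.5% of shared KO peaks and 27% of WT-only peaks (23.5 to 30.7), and exons and introns were not separated. Within 1 kb of a coding start lay 8 KO-only peaks (0.818%), 6 shared KO peaks (0.737%) and 3 WT-only peaks (0.5%). The median distance from a start was 105 kb for KO-only, 110 kb for shared KO and 73.5 kb for WT-only peaks. Over all genes of the table, non-coding ones included, it was 52.8 kb for KO-only, 65.1 kb for shared KO and 47.2 kb for WT-only peaks, and gene spans held 38.8% of KO-only, 33.5% of shared KO and 38.2% of WT-only peaks.

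The KO-only peaks nearest to coding starts included 2 at immune genes. Tnfsf10, which encodes the death ligand TRAIL, had a KO-only peak at chr3:27318034-27319203 inside the gene, 956 bp downstream of its start, at rank 613 with a q-value of 0.307. The WT NF-kB list with LPS held 2 peaks over that interval and the untreated KO NF-kB list 1, and no other IRF3 list held any. Il20, which encodes a cytokine of the interleukin-10 family, had a KO-only peak 776 bp downstream of its start at rank 786 (q-value 0.418), overlapped in the WT NF-kB list with LPS. The remaining KO-only starts were Ubb, which encodes ubiquitin, at rank 1265, Duxf3 at rank 1283, Ugt2b35 at rank 1573, Speer4c at rank 1595, Gm21190 at rank 1732 and Vmn1r103 at rank 1773. WT-only starts were Gm21083 (rank 1344), Vmn2r121 (rank 1360) and Hexdc (rank 1365). All 11 had deposited q-values of 0.307 or more.

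Coding genes as a whole were rarely near peaks, and so were members of immune and control gene lists. Within 10 kb of the 21887 coding genes, 2.87% had a KO peak and 2.20% a WT peak, 1.46% a KO peak and no WT peak, 0.786% a WT peak and no KO peak, and 1.41% both. A KO-only peak was within 10 kb of 1.70% of coding genes and a WT-only peak of 0.959%. Of 306 matched members of all the lists together, 6 had a KO peak and 4 a WT peak. For interferon-stimulated genes the count was 0 of 50 in both lists, and for NF-kB target genes 0 of 52. With shares of 2.87% and 2.20% over all coding genes, counts of 0 in lists of this size cannot set them apart. Of 28 genes of nucleic acid sensing and IRF3 activation, 1 had a KO peak and none a WT peak: Nod1, which encodes a sensor of bacterial peptidoglycan, lay 4205 bp from a KO-only peak of rank 1080 and q-value 0.579. That interval overlapped peaks in the untreated KO IRF3 list, in both NF-kB lists with LPS and in the untreated KO NF-kB list.

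Of 20 genes of the DNA methylation machinery, Dnmt3b, which encodes an enzyme of the same kind as Dnmt3a, had a peak in both lists, 3791 bp away at rank 1146 in KO and 3868 bp away at rank 1237 in WT. Of 30 macrophage identity genes, Fcgr1, which encodes a high-affinity IgG receptor, had a peak in both, 9504 bp away at rank 90 in KO and 9983 bp away at rank 126 in WT. That peak was 996 bp from the start of the histone gene H2bc18 in KO. Of 25 genes of the p53 pathway, 1 (Cdkn1a) had peaks in both lists, and of 27 integrin and adhesion genes 1 (Itgb5). Among markers of other cell types, Kitl, which encodes stem cell factor and stood on the stromal list, had a KO-only peak 9291 bp away at rank 1673, and the other 5 marker lists had none. Within 50 kb, 14 of the 306 members had a KO peak and 10 a WT peak, against 1435 and 1105 of the 21887 coding genes. The 25 mitochondrial DNA and nucleoid genes had 0 peaks within 10 kb.

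Gene families read from symbols were also counted, 17 in all. Genes with a Gm symbol, the provisional names of predicted genes, made up 6.06% of coding genes and were nearest to 7.67% of KO-only, 8.11% of shared KO and 13.8% of WT-only peaks. Of those 83 WT-only peaks, 30 lay in the chromosome 5 runs described above, and Gm genes were nearest to 9.60% of the 552 WT-only peaks outside them. All 18 WT-only peaks nearest to Speer genes lay in those runs. Zinc finger genes were 1.83% of coding genes and were nearest to 2.86% of KO-only, 2.33% of shared KO and 4.83% of WT-only peaks. These shares include runs on chromosome 4: 6 KO-only peaks near Zfp978 and Zfp982, 5 WT-only peaks near Zfp992 and 5 WT-only peaks near Zfp982. Within 10 kb, 46 of 1327 Gm genes had a KO peak and 46 a WT peak. The counts were 19 and 16 of 1110 olfactory receptor genes, and 16 and 14 of 355 vomeronasal receptor genes. Over all coding genes these shares were 2.87% for KO and 2.20% for WT peaks.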

How the data were processed

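Samples were grouped by title into IRF3 ChIP-seq of Dnmt3a KO and of WT macrophages with LPS. The values are deposited peak lists of the authors, in mm10 coordinates per the submitters' processing notes, which name MACS2 2.1.1, Picard 2.8.0, deepTools 3.5.0 and HOMER 4.9 among the tools without their roles. The aligner, calling settings, read depth and merging of replicates are not stated there or in the labels. The list names hold the word chipr, possibly for ChIP-R, which joins replicates through peak ranks. Each deposited peak has a score and a signal value with no stated normalization, and p- and q-values computed by the authors. They served for ranks and q-value thresholds within a list, with ranks ordered by p-value, then signal, width and position. Peaks with q-values above 0.05 were kept.

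Overlaps, distances and promoter windows (RefSeq, GRCm38.p6, the assembly named mm10) were computed with Python 3.11.15, pandas 2.3.3 and biopython 1.88, and intervals with scipy 1.17.1. The overlap step was tested on simulated data. Genes were named as the nearest coding gene within 100 kb for the 10 best-ranked peaks per class, and as list members within 10 kb or coding genes with a start within 1 kb. The result for 1 gene under this rule is left out. Further genes of runs and of peaks kept to 1 genotype were chosen after their values were seen. Members and lists were chosen with earlier results of these data known. Distances planned from gene ends were taken from starts where the promoter table gives them. Alternatives changed the overlap rule, list length, q-value, width, distance and regions used. With no value per replicate, p-values between groups and leaving out replicates were impossible. The labels do not say whether samples came from separate animals. The series' bisulfite, ATAC and input samples were not used here.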

Additional observations from a re-analysis of the deposited data

How the results depend on the processing

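The share of KO peaks in the WT list (45.4%) and of WT peaks in the KO list (57.9%) moved with the definition of a shared peak and with which peaks entered. The values for KO and WT were 38.95% and 49.0% under a reciprocal overlap of 50%, 34.6% and 43.5% with centres within 250 bp, 53.02% and 54.4% with lists of equal length, and 53.1% and 53.5% with q-values under 0.05 in both lists. With both lists cut by width, they were 48.9% and 64.7% for peaks of at least 500 bp, and 5.86% and 6.03% for peaks under 500 bp. The latter count only overlaps between narrow peaks. Against the whole other list, 17.5% of KO and 21.0% of WT peaks between 250 and 500 bp were shared. The values were 31.5% and 42.7% without regions of all 8 lists. At equal length both shares count the same overlaps over the same number of peaks. They could differ only through peaks with several partners, so their closeness is no result about the genotypes. Chosen after seeing the data, peaks under a q-value of 0.05 set against the whole other list gave 95.1% and 93.7%, and leaving out all 11 runs gave 61.02% for WT. Counting peaks within 1 kb of the other list as shared, a common p-value threshold, leaving out chromosomes X and Y, joining abutting peaks and leaving out the chromosome 5 runs moved neither share beyond its interval. Of 18 presence shares, 0 stayed within their interval under reciprocal overlap, 12 at equal length and 18 without the chromosome 5 runs. Of 9 shares for place relative to genes, 3 stayed within their interval when all genes of the table replaced coding genes. The causes were not tested. No paired analysis was possible because each list merges its replicates, and for the same reason no replicate could be left out. Read depth is not given, so whether absence from a list reflects depth was not tested.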
